A study of Mus musculus with 8 samples.

Results

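A set of 10 genes of glutathione and superoxide handling was followed in testis tissue of mice that had been given DEHP, di(2-ethylhexyl) phthalate, a plasticiser. They were chosen by name, as the genes of glutathione synthesis (Gclc, Gclm, Gss), of its reduction (Gsr), of 3 glutathione peroxidases (Gpx1, Gpx3, Gpx4) and of the 3 superoxide dismutases (Sod1, Sod2, Sod3). These 10 genes had 14 of the 41174 probes on the array. Of the 14 probes, 9 for 7 genes passed the filter on dim signal and were tested, among 22975 such probes in all. The filter asked that a probe stand well above background in 4 or more of the 8 channels of either group. Gclm, Gpx3 and Sod3 were not well above background and have no ratio here.

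The DEHP mice were 4 adult C57BL/6J males given 200 mg per kg per day of DEHP in corn oil by gavage for 21 days, and the vehicle mice were 4 such males given corn oil alone. Treatment began at 18 weeks of age and the mice were 21 weeks old at the end. RNA of the right testis was taken by laser capture from 1 cap per mouse, amplified in 2 rounds, and hybridised as 4 mouse pairs on 8 Agilent 2-colour arrays. DEHP mouse 1 was paired with vehicle mouse 2 (pair 1), mouse 2 with vehicle mouse 3 (pair 2), mouse 3 with vehicle mouse 4 (pair 3) and mouse 4 with vehicle mouse 1 (pair 4). Each pair was hybridised on 2 arrays with the dyes swapped, and the 2 arrays were averaged, so that every ratio rests on 4 pairs.

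The labels call the tissue areas rich in Sertoli cells, while the capture protocol names Leydig cells. Sertoli markers were measurable for 17 of 18 genes, all but Gata4. Leydig markers were measurable for 6 of 10. Genes of steroid synthesis and its hormone control fell on both sides of that limit. Cyp11a1, Hsd3b6, Hsd17b3 and Lhcgr were not well above background, while Star, Cyp17a1 and Hsd3b1 were in 8 of 8 channels of each group. Germ cell markers were also measured, with 6 of 10 spermatogonia, 11 of 12 spermatocyte, 10 of 10 round spermatid and 10 of 10 elongating spermatid genes. So were 7 of 8 peritubular myoid, 9 of 10 macrophage and leukocyte, and 6 of 9 endothelial and blood markers. The tissue was thus a mixture of cell types, in which fewer cells of a type and less RNA per cell cannot be told apart. The summed linear level of 6 Leydig markers differed widely between mice, from 4194 to 12577 with DEHP and 4353 to 12172 with vehicle. Insl3 carried most of that range, with a log2 level of 11.05 to 13.31 in DEHP mice and 11.08 to 13.26 in vehicle mice. The SD of the log2 ratio over 4 pairs was 1.65 for Insl3, 0.61 for Hsd3b1 and 0.42 for Star. It was 0.31 for Igf1, 0.14 for Cyp17a1 and 0.030 for Nr5a1.

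Glutathione is built in 2 steps, by glutamate-cysteine ligase (the catalytic subunit Gclc with the modifier subunit Gclm) and by glutathione synthetase (Gss). Glutathione peroxidases use it to reduce hydrogen peroxide and lipid peroxides, and glutathione reductase (Gsr) turns the oxidised form back with NADPH. Superoxide dismutases make hydrogen peroxide from superoxide upstream of the peroxidases. In the testis Gpx4, a selenoprotein that reduces phospholipid peroxides, is also a structural protein of the sperm midpiece.

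The probes behind the values are 60 bases long, and the first 30 bases are given for those on which the results turn, from the scanner files, with positions in mm7. The probe of Gclc lies at chr9:77835053-77835112, that of Gpx1 at chr9:108073279-108073338 and that of Gpx4 at chr10:79836650-79836709, all on the plus strand. The 3 probes of Gsr lie on the plus strand at chr8:32465210-32465269, chr8:32465775-32465834 and chr8:32465796-32465855. The second and the third overlap by 39 bases, and capitals mark the bases of that overlap.
Gclc, A_51_P365019: agtgaactggcttgtacattttgaattctt
Gpx1, A_52_P684378: actgcgctcatgaccgaccccaagtacatc
Gpx4, A_51_P462448: agtttctcattgataagaacggctgcgtgg
Gsr, A_52_P346738: gggaggaaccgatcgagtttacgcccagct
Gsr, A_52_P91604: aatggtttgtgttattttcatGGAACAAAG
Gsr, A_51_P359625: GGAACAAAGTGCATTAAAGTTAGACTTGAG
The probes of Gclm and Gss span 2636 and 1100 bases of the genome with 60 bases of sequence, so each crosses at least 1 exon boundary. No gene annotation of mm7 was used, and the exon or UTR of the other probes is not given here.

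Of the 7 genes, Gclc, Gpx1 and Gpx4 had a ratio above 0 in every one of the 4 pairs, at 1.13- to 1.20-fold, and none of the 7 passed the test. At an adjusted p of 0.05 (limma, Benjamini-Hochberg), 0 of 22975 tested probes (0%) were called, with 0.903 as the lowest value reached. An unadjusted p under 0.05 was found for 3 of the 7 genes, Gclc, Gpx1 and Gpx4, beside 4.59% of all tested probes. This depended on the processing. With Agilent's own ratio the unadjusted limma p was 0.0592 for Gclc, 0.0913 for Gpx1 and 0.202 for Gpx4. A ratio above 0 in all 4 pairs was found for the same 3 genes, beside 6.56% of all probes. Below 0 in all 4 pairs were 0 of the 7 genes, beside 7.08% of all probes. The levels of the 4 DEHP mice lay all above those of the 4 vehicle mice for 0 of the 7 genes, beside 0.763% of probes, and all below for 0 of the 7, beside 1.05%. Since the genes were chosen with earlier results of these data known, no test was made of the list as a whole.

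Gclc, the catalytic subunit of the first and rate-limiting step of glutathione synthesis, had log2 levels of 11.70, 11.40, 11.08 and 11.19 in DEHP mice 1 to 4, against 11.02, 11.16, 11.11 and 11.01 in vehicle mice 1 to 4. DEHP mice 1, 2 and 4 lay above every vehicle mouse, and DEHP mouse 3 lay within the vehicle range. The DEHP mice were also the more spread, with an SD of 0.27 against 0.072 in the vehicle mice (n = 4 each). The log2 ratio of DEHP over vehicle was 0.53, 0.29, 0.066 and 0.17 in pairs 1 to 4, a mean of 0.27 ± 0.20 (SD, n = 4) or 1.20-fold (95% interval 1.03 to 1.40). In limma its unadjusted p was 0.0286 and its adjusted p 0.903.

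Gss, which joins glycine to complete glutathione, gave a dim signal and was well above background in 4 of 8 DEHP and 6 of 8 vehicle channels. Its log2 levels were 7.18, 7.11, 7.07 and 7.11 in DEHP mice 1 to 4, against 6.97, 7.23, 7.12 and 7.23 in vehicle mice 1 to 4. The groups overlapped. Its log2 ratio was -0.049, -0.0077, -0.17 and 0.14 in pairs 1 to 4, with a mean of -0.021 ± 0.13 (SD, n = 4), a 95% interval of -0.18 to 0.14 and a limma adjusted p of 0.973. The background-subtracted intensity of Gss had a median of 23.4 over DEHP channels and 27.8 over vehicle channels. At such signals the offset of 50 added in background correction draws ratios towards 0. The mean of Gss was -0.031 with an offset of 16 and -0.12 with Agilent's own ratio.
Gclm, the modifier subunit of glutamate-cysteine ligase, was well above background in 1 of 8 DEHP and 3 of 8 vehicle channels, so that synthesis was followed through Gclc and Gss only.

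**Figure D1:**
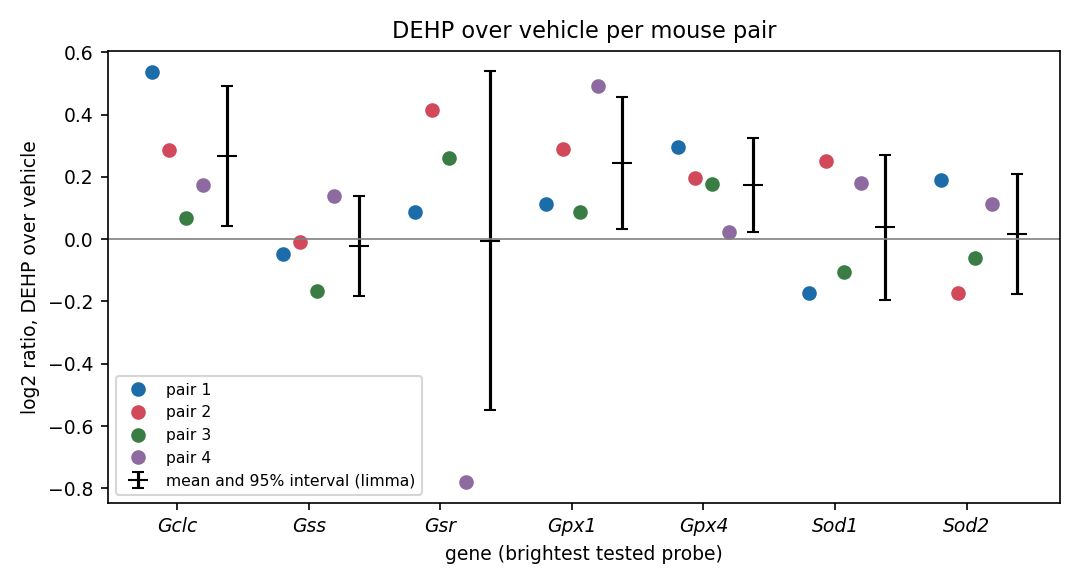
Log2 ratio of DEHP over vehicle (vertical axis) for the brightest tested probe of 7 genes; each point is 1 mouse pair, the mean of its 2 dye-swapped arrays, and the black mark is the limma mean with its 95% interval. All 4 points of Gclc, Gpx1 and Gpx4 lie above 0, and 1 point of Gsr, pair 4 at -0.78, lies far below the other 3.

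Gsr, the reductase that regenerates glutathione, was measured by 3 probes, of which the brightest varied far more between pairs than the others. That probe, A_52_P346738, had log2 levels of 10.69, 10.58, 10.58 and 10.37 in DEHP mice 1 to 4, against 11.15, 10.60, 10.16 and 10.32 in vehicle mice 1 to 4. The 4 vehicle mice spanned 0.99 on the log2 scale, with mouse 1 highest and mouse 3 lowest, and enclosed all 4 DEHP mice.

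The pair ratios of that probe were 0.087, 0.41, 0.26 and -0.78, with a mean of -0.0050 ± 0.53 (SD, n = 4) and a limma adjusted p of 0.997. Its SD over pairs exceeded that of 98.1% of tested probes, against 34.4% for A_51_P359625 and 42.4% for A_52_P91604. The swapped arrays gave nearly the same value in each pair, with -0.86 (DEHP in Cy5) and -0.70 (DEHP in Cy3) in pair 4 and a largest difference of 0.15 between the 2 arrays of a pair. Without pair 4 the mean was 0.25, with an unadjusted limma p of 0.0319 and an adjusted p of 0.575.

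The other 2 probes of Gsr did not show the low value of pair 4, but they were much dimmer. The background-subtracted intensity of A_52_P346738 had a median of 1429 over DEHP channels and 1387 over vehicle channels, that of A_51_P359625 66.8 over DEHP and 89.1 over vehicle channels, and that of A_52_P91604 26.1 over DEHP and 35.4 over vehicle channels. At such signals the offset of 50 added in background correction draws ratios towards 0, but how far it did so for these probes was not tested. In the authors' deposited table, whose normalization is not given, A_51_P359625 had -0.34, 0.033, 0.13 and 0.15 in pairs 1 to 4. Here A_51_P359625 had ratios of -0.14, 0.0038, 0.051 and 0.11 in pairs 1 to 4, a mean of 0.0064 ± 0.11 (SD, n = 4). The dimmer A_52_P91604, which shares 39 bases with it, had ratios of -0.23, -0.0025, -0.015 and 0.063, a mean of -0.047 ± 0.13 (SD, n = 4). Both were lowest in pair 1 and highest in pair 4, whereas A_52_P346738, whose start lies 565 bases before that of A_52_P91604, was lowest in pair 4. The probes of Gsr thus disagreed on the order of the pairs, and all 3 means lay within their spread between pairs.

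**Figure D2:**
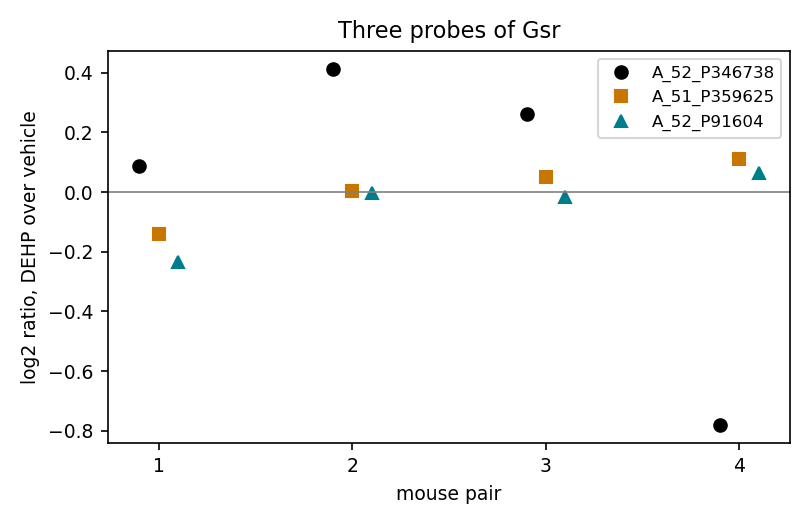
Log2 ratio of DEHP over vehicle (vertical axis) in mouse pairs 1 to 4 for the 3 probes of Gsr, with 1 symbol per probe. The overlapping probes A_51_P359625 and A_52_P91604 are the dimmer ones and stay between -0.23 and 0.11, while A_52_P346738 ranges between -0.78 and 0.41.

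Of the peroxidases, Gpx1 and Gpx4 had mean ratios above 0 and Gpx3 was not measurable. Gpx1, the cytosolic and mitochondrial selenoenzyme that reduces hydrogen peroxide, had log2 levels of 9.71, 9.84, 9.86 and 9.86 in DEHP mice 1 to 4, against 9.36, 9.59, 9.56 and 9.78 in vehicle mice 1 to 4. DEHP mice 2 to 4 lay above every vehicle mouse, and DEHP mouse 1 lay below vehicle mouse 4. The pair ratios were 0.11, 0.29, 0.087 and 0.49, with a mean of 0.25 ± 0.19 (SD, n = 4) or 1.19-fold (95% interval 1.02 to 1.37). In limma the unadjusted p was 0.0314 and the adjusted p 0.903. All 8 arrays gave Gpx1 a ratio above 0, as 1.89% of all probes did.

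Gpx4, the phospholipid hydroperoxide peroxidase, had log2 levels of 14.40, 14.37, 14.18 and 14.15 in DEHP mice 1 to 4, against 14.12, 14.10, 14.17 and 14.001 in vehicle mice 1 to 4. Of the DEHP mice, 3 lay above every vehicle mouse, and DEHP mouse 4 lay below vehicle mouse 3. The pair ratios were 0.30, 0.20, 0.18 and 0.022, with a mean of 0.17 ± 0.11 (SD, n = 4) or 1.13-fold (95% interval 1.02 to 1.25). The unadjusted limma p was 0.0321 and the adjusted p 0.903.
Gpx3, the secreted plasma peroxidase, was well above background in 0 of 8 DEHP and 0 of 8 vehicle channels.

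For each of Gclc, Gpx1 and Gpx4 an exact test over sign changes of the 4 pairs gave a two-sided p of 0.125, the smallest that 4 pairs allow. Leaving out 1 pair gave an unadjusted limma p of 0.0237 to 0.0865 for Gclc, 0.0349 to 0.0995 for Gpx1 and 0.0112 to 0.111 for Gpx4. The mean of Gclc was 0.18 without pair 1, and that of Gpx1 was 0.16 without pair 4. With the mouse pair as a replicate block on 8 arrays the unadjusted limma p of Gpx4 was 0.149, and with a dye term added it was 0.0165. The pairs with the highest ratio differed, since Gclc and Gpx4 were highest in pair 1 and Gpx1 in pair 4. Gpx4 was lowest in pair 4. By size of the mean ratio, 3.23% of tested probes exceeded Gclc, 4.30% exceeded Gpx1 and 11.6% exceeded Gpx4.

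**Figure D3:**
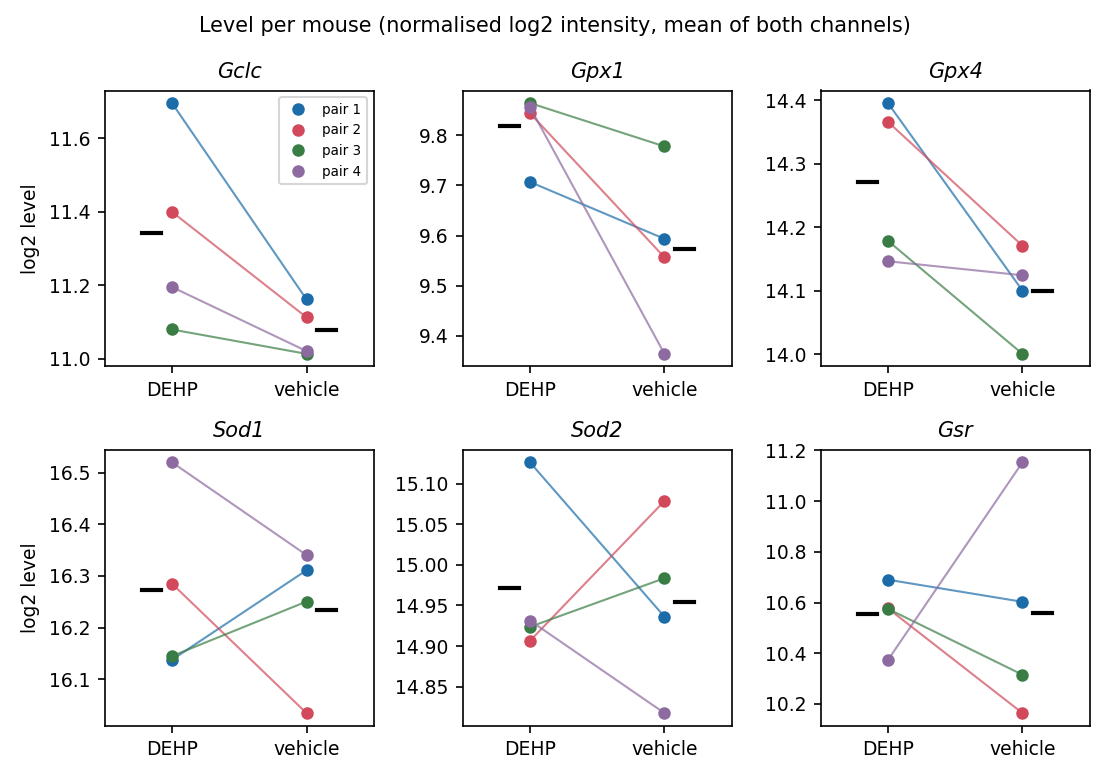
Normalised log2 level (vertical axis, a scale of its own per gene) of 6 genes in 4 DEHP and 4 vehicle mice; lines join the mice of a pair, which shared arrays, and short black bars are group means. The groups overlap in every panel, and in the panel of Gsr vehicle mouse 1 of pair 4 stands highest at 11.15.

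Dye orientation moved the size of these ratios. Each orientation had a slide of its own, so that dye and slide cannot be told apart. Gpx4 had a mean log2 ratio of 0.025 ± 0.11 where DEHP was in Cy5 and of 0.32 ± 0.11 where it was in Cy3 (SD, n = 4 pairs each). The ratio with DEHP in Cy3 was the higher one in all 4 pairs of Gpx4, by 0.27 to 0.32, while the median size of that difference over all tested probes was 0.10. The order of the 4 pairs of Gpx4 was the same in both orientations.

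Gclc went the other way, with 0.38 ± 0.24 where DEHP was in Cy5 and 0.15 ± 0.18 where it was in Cy3 (SD, n = 4 pairs each), and 7 of its 8 arrays were above 0. Gpx1 had 0.17 ± 0.20 in the Cy5 orientation and 0.32 ± 0.19 in the Cy3 orientation (SD, n = 4 pairs each). The mean of each of the 3 genes was therefore above 0 in both orientations, but it was smaller than its SD for Gpx1 and Gpx4 where DEHP was in Cy5 and for Gclc where it was in Cy3.

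**Figure D4:**
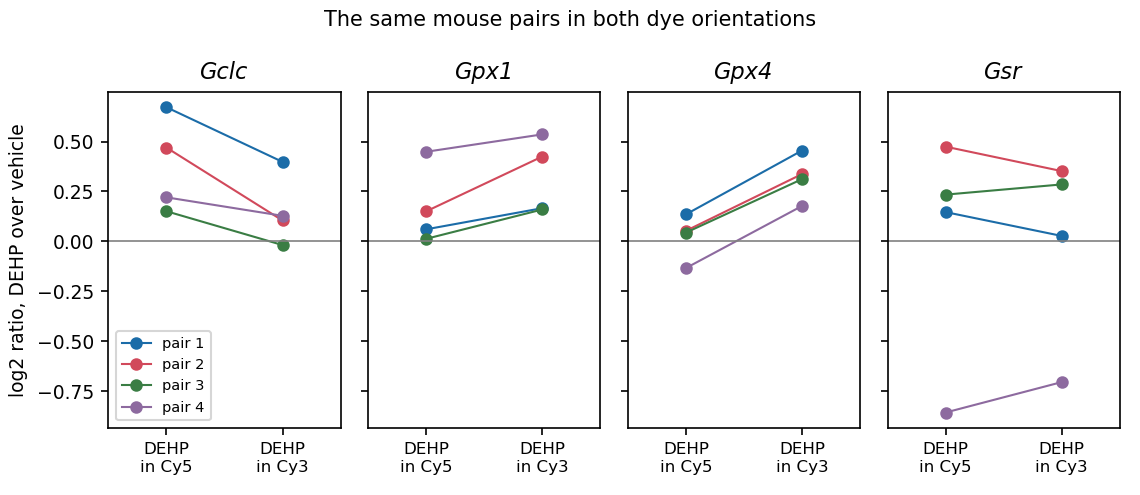
Log2 ratio of DEHP over vehicle (vertical axis) of 4 genes on the arrays with DEHP in Cy5 (left) and those with it in Cy3 (right); each line is 1 mouse pair. Gpx4 is higher with DEHP in Cy3 in all 4 pairs and Gclc is lower, while the low pair 4 of Gsr appears in both.

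The superoxide dismutases had mean ratios near 0, with pairs on both sides. Sod1, the cytosolic copper-zinc enzyme, had log2 levels of 16.14, 16.29, 16.14 and 16.52 in DEHP mice 1 to 4, against 16.34, 16.31, 16.03 and 16.25 in vehicle mice 1 to 4. The highest mouse was a DEHP mouse and the lowest a vehicle mouse, and the others were mixed. The pair ratios were -0.17, 0.25, -0.11 and 0.18, with a mean of 0.038 ± 0.21 (SD, n = 4), a 95% interval for the fold of 0.874 to 1.21 and a limma adjusted p of 0.967. The other 2 probes of Sod1 lie 2316 bases or more before this one on chromosome 16 and were well above background in 0 of 8 DEHP and 0 of 8 vehicle channels.

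Sod2, the mitochondrial manganese enzyme, had log2 levels of 15.13, 14.91, 14.92 and 14.93 in DEHP mice 1 to 4, against 14.82, 14.94, 15.08 and 14.98 in vehicle mice 1 to 4. DEHP mouse 1 was the highest of the 8 and vehicle mouse 1 the lowest. The pair ratios were 0.19, -0.17, -0.060 and 0.11, with a mean of 0.018 ± 0.16 (SD, n = 4), a 95% interval for the fold of 0.886 to 1.16 and a limma adjusted p of 0.983. The mean was -0.040 where DEHP was in Cy5 and 0.076 where it was in Cy3.
Sod3, the extracellular enzyme, was well above background in 1 of 8 DEHP and 0 of 8 vehicle channels.

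Over the 7 genes, 5 had a mean ratio above 0, beside 48.9% of all tested probes, and the median of the 7 means was 0.038, beside -0.0021 over all probes. The median of the 7 genes was 0.11, 0.25, 0.066 and 0.14 in pairs 1 to 4. The median of the 7 means was 0.081 to 0.16 when 1 pair was left out, 0.16 being without pair 4, and 0.19 with array weights. With median centring in place of loess it was 0.26, and under that scaling the median of the brightest 20% of all probes was 0.14, where loess gave -0.0026. Among bright genes, that scaling gave Gpx4 a mean of 0.35, Sod1 of 0.26 and Sod2 of 0.21, again with no adjusted p under 0.05 in limma. In the authors' deposited table, which had 15436 probes, Gclc had 0.52, 0.30, 0.074 and 0.20 in pairs 1 to 4. Gpx1 had 0.12, 0.42 and 0.11 in pairs 1 to 3 of the authors' deposited table, and its pair 4 was left out because 1 of the 2 arrays had no value there.

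Cell type markers varied between pairs as well. The median log2 ratio of 10 elongating spermatid markers was -0.42, 0.077, 0.12 and 0.30 in pairs 1 to 4, and that of 10 round spermatid markers -0.072, 0.18, -0.15 and -0.36. That of 17 Sertoli markers was 0.085, 0.11, -0.070 and 0.034, and that of 6 Leydig markers -0.081, 0.15, -0.51 and -0.16. In pair 1, where Gclc and Gpx4 were highest, elongating spermatid markers were thus lowest, and in pair 4, where Gpx1 was highest and Gsr lowest, round spermatid markers were lowest. Summed over the list, elongating spermatid markers had linear levels of 625761 to 898280 in DEHP mice and 615248 to 876317 in vehicle mice, and round spermatid markers 118591 to 139280 in DEHP mice and 123146 to 179691 in vehicle mice. The part of these cells in the ratios of the 7 genes was not tested.

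The genes around the set were followed in 7 further lists, and 0 genes passed the adjusted test in any of them. Of 4 measurable other glutathione peroxidases, 2 had a mean ratio above 0, with a median of 0.0068. Of the peroxidases of the endoplasmic reticulum, Gpx7 had -0.023 ± 0.031 and Gpx8 had 0.037 ± 0.14 (SD, n = 4 pairs). Neither differed from 0 beyond its spread.

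Peroxiredoxins, thioredoxins and catalase, which mostly remove peroxides without glutathione or restore the enzymes that do, had 8 of 13 mean ratios above 0 and a median of 0.032. Srxn1, which repairs overoxidised peroxiredoxins, had ratios of 0.50, 0.080, 0.33 and -0.061 in pairs 1 to 4, a mean of 0.21 ± 0.25 (SD, n = 4). Catalase (Cat) had a mean of 0.056 ± 0.11, Prdx1 of -0.045 ± 0.089 and Prdx6 of -0.18 ± 0.31 (SD, n = 4 pairs). The mitochondrial Prdx3 had 0.14 ± 0.33 and Prdx4, of the endoplasmic reticulum, 0.087 ± 0.33 (SD, n = 4 pairs).

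The thioredoxin reductases are the counterparts of Gsr in the thioredoxin system, and for Txnrd1 and Txnrd3, but not Txnrd2, pair 4 stood on the other side of 0 from the rest. Txnrd1 had ratios of -0.45, -0.28, -0.56 and 0.45 in pairs 1 to 4, with a mean of -0.21 ± 0.45 (SD, n = 4). Txnrd3, which is abundant in testis and also reduces glutathione disulphide, had -0.53, -0.28, -0.39 and 0.38, with a mean of -0.20 ± 0.40 (SD, n = 4). The mitochondrial Txnrd2 had 0.14, -0.053, -0.020 and -0.049, with a mean of 0.0055 ± 0.093 (SD, n = 4), so that its odd pair was pair 1. In all 4 pairs Txnrd1 and Txnrd3 had the opposite sign to the brightest probe of Gsr, while Txnrd2 had its sign in pairs 1 and 4. The opposite signs were not particular to these reductases. Nnt, an NADPH supplier, had -0.24, -0.21, -0.39 and 0.48, and the copper chaperone Ccs had -0.077, -0.18, -0.34 and 0.42. Over all tested probes, arrays of pair 4 correlated with those of the other pairs at -0.36 to -0.14.

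Supply, turnover and glutaredoxin genes had 8 of 11 mean ratios above 0, with a median of 0.040. The cystine carrier Slc7a11 had -0.058 ± 0.24 (SD, n = 4 pairs), and Ggt1, which breaks down extracellular glutathione, and Glrx were not well above background. Of 6 NADPH suppliers, 4 were measurable. Above 0 were 0 of these 4 mean ratios, beside 48.9% of all tested probes, with a median of -0.055. Among the 4, G6pdx had -0.029 ± 0.028 (SD, n = 4 pairs), and 0 had an unadjusted limma p under 0.05.

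NRF2, encoded by Nfe2l2, is the transcription factor that induces many glutathione genes, and Keap1 holds it back. Of 9 measurable regulators and targets, 5 had a mean ratio above 0, with a median of 0.0050. Nfe2l2 had -0.14 ± 0.25, Keap1 -0.082 ± 0.13 and the target Hmox1 0.033 ± 0.071 (SD, n = 4 pairs), each within its spread between pairs. Nqo1, another target, was not well above background.

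Gpx1 and Gpx4 hold selenium, and of 8 genes of selenium delivery and selenoprotein synthesis 2 had a mean ratio above 0, with a median of -0.075. Lrp8, the receptor that takes up selenoprotein P in Sertoli cells, had -0.059, -0.013, -0.15 and -0.074 in pairs 1 to 4, a mean of -0.075 ± 0.058 (SD, n = 4). Eefsec, the elongation factor for selenocysteine, went the other way with 0.34, 0.041, 0.12 and 0.36, a mean of 0.22 ± 0.16 (SD, n = 4), and was the 1 gene of the 8 with an unadjusted limma p under 0.05 (0.0314, adjusted 0.903). Sephs2, which makes the selenium donor, had 0.0089 ± 0.12 (SD, n = 4 pairs). Selenop, the carrier itself, had -0.54, 1.34, -1.40 and -0.024, and the Leydig hormone Insl3 had -0.98, 2.23, -1.49 and -0.25, so that both were highest in pair 2 and lowest in pair 3. For superoxide sources and copper delivery, 4 of 5 mean ratios were above 0 with a median of 0.090, and Ccs, the copper chaperone of Sod1, had -0.043 ± 0.33 (SD, n = 4 pairs).

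**Figure D5:**
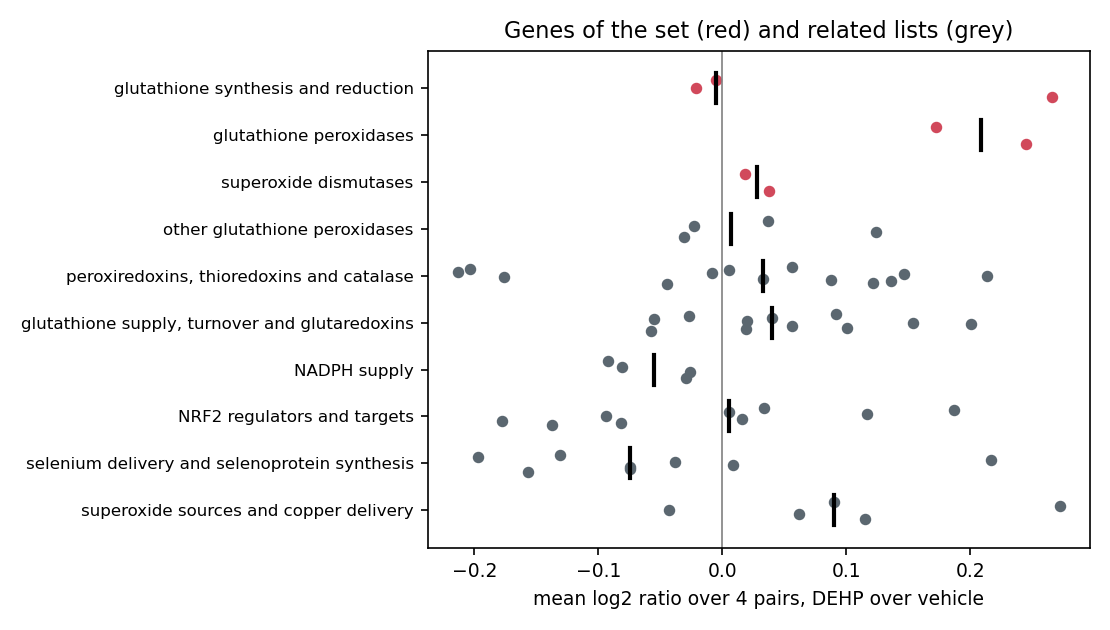
Mean log2 ratio of DEHP over vehicle over 4 pairs (horizontal axis) for each tested gene, with the 7 genes of the set in red, related genes in grey, and a black bar at the median of each list. The medians run from -0.075 for selenium genes to 0.21 for the 2 glutathione peroxidases.

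The antioxidant response element, to which NRF2 binds, was looked for as the core TGACNNNGC on both strands in RefSeq promoters of GRCm38.p6, from 250 bases before to 50 bases after a gene's start. Of the 10 genes, 7 were in that table and were searched, all but Gclc, Gsr and Sod3. Of the 7, 2 genes, Gclm and Sod1, held the core, beside 3781 of all 27025 genes. The matches are printed with the core in capitals, as read on the plus strand, from promoters at chr3:122245307-122245606 (Gclm) and chr16:90220512-90220811 (Sod1). They describe these windows only.
Gclm: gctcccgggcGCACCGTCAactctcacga
Sod1: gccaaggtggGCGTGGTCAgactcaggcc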

How the data were processed

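Scanned spot intensity (mean foreground, median background) and a log10 ratio of Cy5 over Cy3 were deposited, per the file headers, from version 9.5.1.1 of Agilent Feature Extraction. A further deposited table, of log2 ratios by the authors, was tied to spots and to the direction DEHP over vehicle from its values; limma is named in the submitters' processing notes, and its normalization is not given in the sources used here.

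Intensities were corrected by normexp (offset 50), normalised by loess within arrays, averaged over spots of a probe, turned to DEHP over vehicle by the dye labels, and averaged over the 2 arrays of a pair. Probes well above background in at least 4 of 8 channels of either group were kept. Arrays of the same pair correlated at 0.54 to 0.72 over probes and arrays of different pairs at -0.36 to 0.061, and the labels name the same mice on both. The mean over the 4 pairs was tested against 0 (limma 3.58.1 with statmod 1.5.0 in R 4.3.3, files read by version 1.17.8 of data.table), two-sided, adjusted by Benjamini-Hochberg over all kept probes. The script was tested on simulated data. A gene with several probes was represented by its brightest. Levels per mouse are means of its 2 channels after loess and Aquantile scaling.

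Between 49.8% and 59.5% of a channel's spots stood well above background, and 0 were saturated. The number of mouse pairs, 4, limits the precision, since the 2 arrays of a pair hold the same RNA. The labels speak of independent mice, so p-values measure the spread between mouse pairs. The genes, lists and tests were chosen with earlier results of these data known. Related genes, the marker Insl3 included, were named from a list of names, and other genes were given as counts. The exceptions were Txnrd2, Eefsec, Nnt, 5 markers below background and the measured Leydig markers Star, Cyp17a1, Hsd3b1, Igf1 and Nr5a1. These exceptions were named after their values were seen. Current symbols were matched by accession for 22951 probes, by symbol for 6659 and by synonym for 3109, while 8455 had no match.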

Additional observations from a re-analysis of the deposited data

Results flagged for a closer look

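In 2 of 21 groups of 4 values, 1 sample lay far from the other 3 by Dixon's criterion, and chance gives such a sample in about 1 of 20 groups. Both were DEHP mouse 1. Its log2 level of Gpx1 was 9.71, below the 9.84 to 9.86 of the other 3 DEHP mice. Its log2 level of Sod2 was 15.13, above the 14.91 to 14.93 of the other 3.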

How the results depend on the processing

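In all 17 alternatives, 0 probes and so 0 of the genes had an adjusted p under 0.05 in limma, with the smallest adjusted p between 0.444 and 0.999. With the mouse pair as a replicate block on 8 arrays, 0 probes were called (smallest adjusted p 0.473, consensus correlation 0.63), so that the block changed no call. Gclc (0.15 to 0.38), Gpx1 (0.16 to 0.32) and Gpx4 (0.025 to 0.35) had mean log2 ratios above 0 in every alternative that measured them. Their unadjusted limma p did not stay under 0.05. It ran from 0.0121 to 0.116 for Gclc, 0.0112 to 0.178 for Gpx1 and 0.00359 to 0.697 for Gpx4. In the authors' deposited table it was 0.0582 for Gclc and 0.178 for Gpx1. The median of the genes moved to 0.26 with median centring, 0.19 with array weights and 0.22 over the 3 genes of the authors' deposited table, where 3 of 3 were above 0. Leaving out 1 pair gave medians of 0.081 to 0.16 (0.16 without pair 4) and 4 to 6 genes above 0. Gsr turned above 0 without background correction (0.0063), with Agilent's ratio (0.046), with median centring (0.087), with array weights (0.19) and in the authors' deposited table (0.025), and ranged from -0.14 to 0.25 when 1 pair was left out. Sod2 turned below 0 with DEHP in Cy5 alone (-0.040) and with array weights (-0.042), and ranged from -0.039 to 0.081 when 1 pair was left out. Gss and Sod1 changed sign in the alternatives run only when 1 pair was left out, where they ranged from -0.074 to 0.027 and -0.033 to 0.11. Over all alternatives Gss ran from -0.12 (Agilent's ratio) to 0.027, and Sod1 from -0.033 to 0.26 (median centring). The cause of the sign changes was not tested. Leaving out Gsr, an alternative chosen after seeing the data, gave a median of 0.11. Gss was near background, and the 3 genes below it have no ratio.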
